A study of Mus musculus with 2 samples.

Results

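The hypothalamus reads hormones that the gut and the pancreas release during a meal, and the receptors for several of these hormones are described here in single nuclei. The genes are Glp1r, Gipr, Calcr, Calcrl, Ramp1, Ramp3, Cckar and Cckbr, which are 8 of the 32285 genes of the count matrix, and they were taken by symbol, with earlier results of these data known. Glp1r encodes the receptor for glucagon-like peptide 1 and Gipr the receptor for glucose-dependent insulinotropic polypeptide. Calcr encodes the calcitonin receptor and Calcrl the calcitonin receptor-like receptor. Ramp1 and Ramp3 encode receptor activity-modifying proteins, single-pass membrane proteins that pair with these receptors and set their ligand. Cckar and Cckbr encode the receptors for cholecystokinin.

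The nuclei came from adult male C57BL/6J wild-type mice aged 10 to 12 weeks, with no treatment. They were enriched by sorting on NeuN, which marks the nuclei of neurons. They were pooled and sequenced with 10x Genomics chemistry, with 1 library for gene expression and another for hashtags, which are barcoded antibodies that mark a preparation before pooling. Both samples are labelled as arcuate nucleus (ARC), but the matrix held 2 hashtags named ARC and PVH, the latter the usual abbreviation of the paraventricular hypothalamus. The hashtags do not assign nuclei to mice, so each hashtag is 1 sample without replicates, and no test was made.

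Of the 11409 barcodes, none of them listed more than once, 10170 passed the filters, and 3767 carried the ARC hashtag and 3074 the PVH hashtag alone. Median depths were 4827 and 5039 unique molecular identifiers (UMIs, counted once per captured RNA molecule) per nucleus. Sim1, a transcription factor of PVH neurons, stood at 10.6 counts per 1000000 UMIs (CPM) with the ARC hashtag and 109 CPM with the PVH hashtag. Pomc, a peptide precursor of ARC neurons, stood at 164 and 90.3 CPM. Agrp, which in the brain is made in the ARC, stood at 174 and 152 CPM. A UMI of Oxt was found in 92.6% of the ARC nuclei without Glp1r. UMIs of abundant peptide genes were thus widespread in nuclei of both hashtags, and whether they came from free RNA was not tested. A UMI of such a peptide in a nucleus is therefore not read here as expression.

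GLP1 is secreted by intestinal L cells and by neurons of the hindbrain, and its receptor couples to the stimulatory G protein and raises cyclic AMP. Amylin, which is co-secreted with insulin, acts on the calcitonin receptor when that receptor is paired with a receptor activity-modifying protein, whereas the calcitonin receptor-like receptor needs such a partner to reach the cell surface and responds to calcitonin gene-related peptide when paired with RAMP1 and to adrenomedullin when paired with RAMP2 or RAMP3. In the ARC, neurons that make agouti-related protein (AGRP) promote feeding and neurons that make pro-opiomelanocortin (POMC) reduce it. Neurons of the PVH that carry Sim1 receive input from both.

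All members were found in nuclei of both hashtags. On the GRCm38 build with GENCODE M21, the 8 genes lie apart from each other, with Glp1r at chr17:30901817-30940791 on the plus strand, Calcr at chr6:3685680-3764714 on the minus strand, Calcrl at chr2:84330626-84425411 on the minus strand, and Cckar at chr5:53697776-53707705 on the minus strand. Gipr lies at chr7:19156061-19166127 on the minus strand, Cckbr at chr7:105425731-105470898 on the plus strand, Ramp1 at chr1:91179822-91225196 on the plus strand and Ramp3 at chr11:6658521-6677475 on the plus strand. UMIs of nuclear RNA can fall in introns as well as exons, and the gene spans from 9.93 kb for Cckar to 94.8 kb for Calcrl, so levels are compared between nuclei and not between genes.

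Between the hashtags, Glp1r and Calcr were higher with the ARC hashtag, and Ramp1 and Cckar with the PVH hashtag. Glp1r gave 127 UMIs in ARC nuclei, or 6.52 CPM (95% interval 5.43 to 7.75), and 72 UMIs in PVH nuclei, or 4.30 CPM (3.37 to 5.42), a level 1.51-fold higher in ARC nuclei (1.13 to 2.05). Calcr gave 786 and 470 UMIs, or 40.3 CPM (37.6 to 43.2) and 28.1 CPM (25.6 to 30.7), which was 1.44-fold higher in ARC nuclei (1.28 to 1.61). For both genes the intervals of the 2 hashtags did not overlap.

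Ramp1 gave 89 UMIs with the ARC hashtag and 132 with the PVH hashtag, or 4.57 CPM (3.67 to 5.62) and 7.89 CPM (6.60 to 9.35), and was 1.73-fold higher in PVH nuclei (1.31 to 2.29). Cckar gave 62 and 89 UMIs, or 3.18 CPM (2.44 to 4.08) and 5.32 CPM (4.27 to 6.55), a level 1.67-fold higher in PVH nuclei (1.196 to 2.35). A stricter quantile of 0.99 for assigning nuclei to hashtags left 1229 ARC and 407 PVH nuclei. With these the order of Cckar was lost (log2 ratio of PVH over ARC -0.0581, -1.10 to 0.896), the interval of Calcr included equal levels (-0.24, -0.58 to 0.0952), and that of Calcrl, given next, did not (1.27, 0.63 to 1.91).

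The remaining members had intervals of the ratio that included equal levels. Calcrl gave 150 UMIs (7.695 CPM, 6.51 to 9.03) with the ARC hashtag and 153 (9.14 CPM, 7.75 to 10.7) with the PVH hashtag, a PVH level 1.19-fold that of ARC (0.942 to 1.498). Cckbr gave 37 and 47 UMIs, at 1.90 CPM (1.34 to 2.62) and 2.81 CPM (2.06 to 3.74), with a fold of 1.48 (0.941 to 2.34). Gipr was found by 16 and 21 UMIs (0.821 and 1.26 CPM) and Ramp3 by 23 and 19 (1.18 and 1.14 CPM), so a difference between the hashtags was not detectable at this depth for these genes. No member differed by 2-fold in either direction, against 3.36% of the 18112 genes with at least 20 UMIs that were at least 2-fold higher with the PVH hashtag and 2.68% that were at least 2-fold higher with the ARC hashtag. The median log2 ratio of PVH over ARC was 0.41 over the members and -0.04 over all genes tested. All intervals given here cover counting error only.

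**Figure D1:**
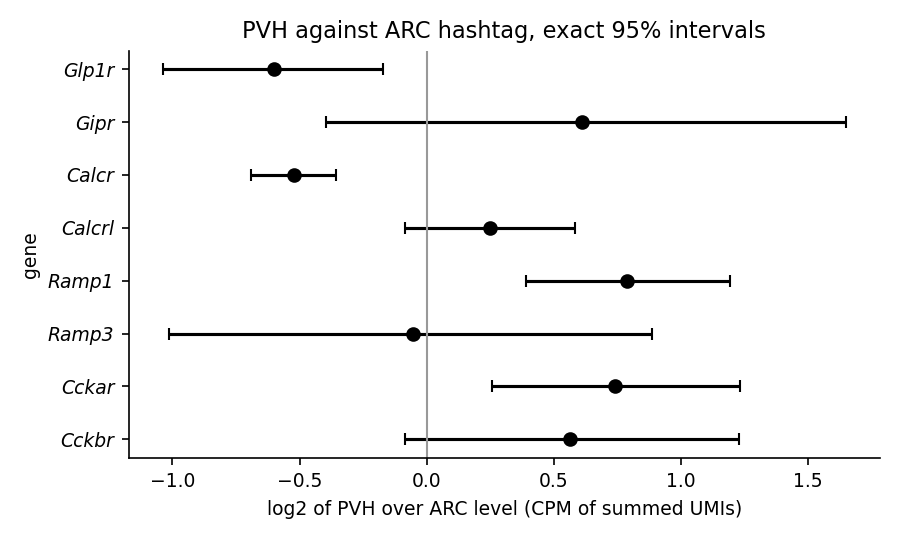
Log2 of the PVH level over the ARC level for each of the 8 genes, with exact 95% intervals of the ratio of summed UMIs (points, estimate; bars, interval; line at 0, equal levels). Glp1r and Calcr lie to the left of 0 with their whole interval, Ramp1 and Cckar to the right, and the other genes cross 0.

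Nuclei of each hashtag were clustered alone with the 8 genes left out of the variable genes, which gave 13 ARC and 15 PVH clusters. A class name required the first marker of the class and at least 3 of its markers at 1.5-fold. It also required that no other class passed and that no non-neuronal type passed with its first marker. Further, no other marker list could have more genes among the leading genes. ARC cluster 2 passed the Sim1 PVH-like markers and PVH cluster 7 the dopaminergic-like markers, but both stayed unnamed under these conditions. In ARC nuclei, cluster 1 (697 nuclei) was AGRP-like, cluster 4 (285) POMC-like, cluster 8 (212) KNDy-like after kisspeptin, neurokinin B and dynorphin, cluster 10 (196) VMH-like after the neighbouring ventromedial hypothalamus and cluster 12 (182) dopaminergic-like. In PVH nuclei, clusters 4, 6, 8, 10, 11, 12 and 14 were Sim1 PVH-like and together held 1105 nuclei. The other clusters are called by number and leading genes. ARC cluster 2 (572 nuclei) and PVH cluster 1 (485) were mixed, with genes of oligodendrocytes such as Sox10 among their leading genes. When ARC cluster 2 was clustered again, a part of 83 nuclei held the non-neuronal markers. Its neuronal marker level was 0.311-fold that of the other ARC nuclei, and it was set apart after the data were seen. When PVH cluster 1 was clustered again, no part was low enough in neuronal markers to be set apart. Its part of 294 nuclei, led by Gm26688, Sox10 and Mobp, stood at 0.965-fold the neuronal marker level of the other PVH nuclei. All PVH values therefore include these nuclei.

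Glp1r was highest in a few ARC clusters that do not belong to 1 class. The highest level was in cluster 3, GABAergic nuclei led by Unc13c, Gm4131 and Tmem26, where 33 UMIs in 32 of 302 nuclei (10.6% of nuclei) gave 21.4 CPM (14.7 to 30.02), 4.08-fold the level of the other ARC nuclei (2.66 to 6.13). This cluster held 25.98% of all Glp1r UMIs of the ARC hashtag (18.6 to 34.5) and also the highest level of the peptide gene Sst, at 171 CPM against 66.6 to 94.9 CPM in the other 12 clusters. The next level was in cluster 9, led by Chat, the enzyme that makes acetylcholine, with 15 UMIs and 13.9 CPM (7.76 to 22.9). Cluster 9 also held the highest level of Ghrh (79.5 CPM), the gene of growth hormone-releasing hormone. Neither cluster 3 nor cluster 9 passed the marker rule for any class, including the classes headed by Sst, Chat and Ghrh.

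The POMC-like cluster held 22 Glp1r UMIs in 22 of 285 nuclei, or 13.2 CPM (8.27 to 19.98), 2.24-fold the level of the other ARC nuclei (1.35 to 3.57). The dopaminergic-like cluster held 12 UMIs, or 12.8 CPM (6.62 to 22.4), and cluster 11, led by Tbx19 and rich in the leptin receptor gene Lepr (94.7 CPM), held 9 UMIs, or 9.37 CPM (4.28 to 17.8). The intervals of clusters 9, 4, 12 and 11 overlapped that of cluster 3, so their order is not resolved. Clusters 3, 9, 4 and 12 were the ones with at least 10 UMIs and at least 2-fold the level of the other ARC nuclei, and they held 82 of the 127 UMIs (64.6%). At a resolution of 0.8 the dopaminergic-like class held Glp1r at 5.88 CPM (1.21 to 17.2).

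In contrast, the AGRP-like cluster, the largest, held 5 Glp1r UMIs in 697 nuclei, or 1.33 CPM (0.431 to 3.10), 0.171-fold the level of the other ARC nuclei (0.0545 to 0.410). Its interval did not overlap that of the POMC-like cluster. The KNDy-like cluster held 2 UMIs (1.89 CPM, 0.228 to 6.81), the VMH-like cluster 4 (3.65 CPM, 0.995 to 9.35), and clusters 5, 6 and 7 held 2, 2 and 1. Cluster 13 had no Glp1r UMI in 135 nuclei, which allows up to 2.22% of nuclei with a UMI. The share of nuclei with a Glp1r UMI was 0.717% in the AGRP-like cluster and 1.205% (1 of 83) in the non-neuronal part. Median depth was 2562 UMIs in that part against 5018 in the AGRP-like cluster. A single UMI in so few nuclei (4.22 CPM, 0.107 to 23.5) does not let that part separate any of the clusters above from background. Against the AGRP-like cluster, the interval of cluster 3 (14.7 to 30.02 CPM) did lie higher.

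Glp1r UMIs were also placed within the mixed cluster 2. Of its 20 UMIs, 10 lay in a part of 119 nuclei led by Gna14 and Nfib (19.3 CPM, 9.25 to 35.5) and 5 in a part of 42 nuclei led by Ebf3 and Sim1 (19.4 CPM, 6.30 to 45.3). Bnc2, the gene that marks the leptin-responsive neurons the study is about, stood at 19.3 CPM (9.25 to 35.5, 10 UMIs) in the first of these parts, 4.86 CPM (1.78 to 10.6, 6 UMIs) in a part of 210 nuclei and 16.9 CPM (4.598 to 43.2, 4 UMIs) in the non-neuronal part, so it did not single out the first part. Over the whole ARC hashtag, 2 of 20 nuclei with a Bnc2 UMI held a Glp1r UMI (10.0%, 1.23 to 31.7), against 120 of 3747 nuclei without one (3.20%, 2.66 to 3.82), intervals that overlapped.

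With the PVH hashtag, Glp1r was carried mainly by Sim1 PVH-like clusters, which held 45 of the 72 UMIs (62.5%) and stood at 6.96 CPM (5.08 to 9.31) against 2.63 CPM (1.73 to 3.83) in the other clusters. Within this class the levels were uneven. Cluster 10, led by Arhgap28, Hs3st3a1 and Nkx2-2, held 16 UMIs in 13 of 128 nuclei, or 21.6 CPM (12.4 to 35.1), which was 22.2% of all Glp1r UMIs of the PVH hashtag (13.3 to 33.6). Cluster 14, led by Pla2r1 and holding the highest Avp level (1465 CPM), the gene of vasopressin, held 12 UMIs in 12 of 90 nuclei, or 21.4 CPM (11.1 to 37.4). Cluster 6, led by Aox3, Npr3 and Esr2, held 10 UMIs, or 8.14 CPM (3.90 to 14.96), 2.03-fold the level of the other PVH nuclei with an interval that included 1 (0.9302 to 4.00). The interval of cluster 10 overlapped those of clusters 14, 6 and 11, and under 6 of 11 alternative clusterings the leading PVH cluster shared no nucleus with cluster 10.

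The other Sim1 PVH-like clusters held less Glp1r. Cluster 11, which had the highest Oxt level (2003 CPM), the gene of oxytocin, held 4 UMIs (5.01 CPM, 1.37 to 12.8). Cluster 4, the one with the highest level of Crh, the gene of corticotropin-releasing hormone (14.6 CPM), held 1 UMI in 298 nuclei, and cluster 8, with the highest level of Trh (106 CPM), the gene of thyrotropin-releasing hormone, held 1 in 184 nuclei. The intervals of cluster 4 (0.0176 to 3.88 CPM) and cluster 8 (0.0227 to 4.99 CPM) lay below those of clusters 10 and 14. Clusters 13 and 15, which are not of this class, had no Glp1r UMI in 96 and 65 nuclei, which allows up to 3.12% and 4.62% of nuclei with a UMI.

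**Figure D2:**
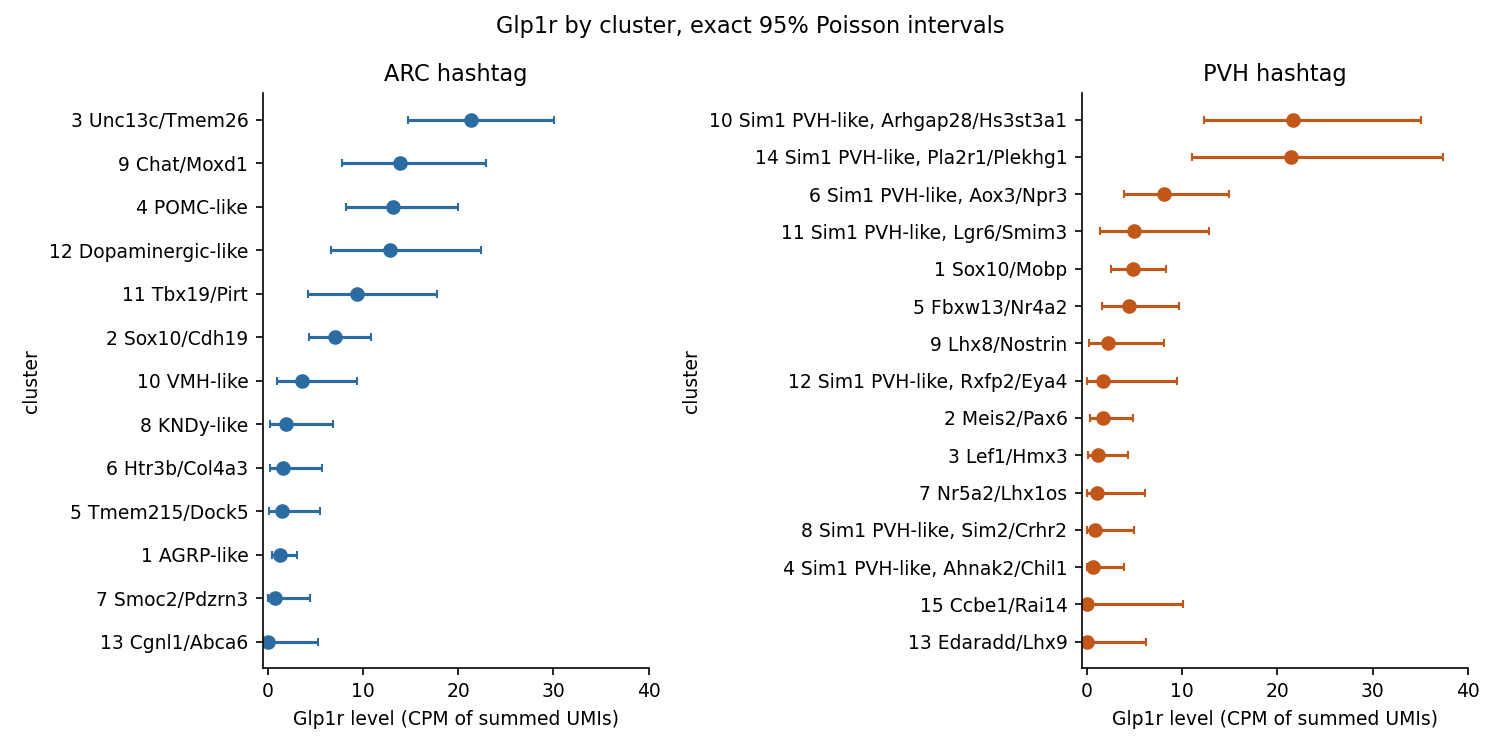
Glp1r level in CPM of summed UMIs (x axis) for each ARC cluster (left) and PVH cluster (right), named by number with class or leading genes, with exact 95% Poisson intervals as bars. Cluster 3 leads the ARC panel at 21.4 CPM and clusters 10 and 14 lead the PVH panel at 21.6 and 21.4 CPM, while the AGRP-like cluster sits near the bottom at 1.33 CPM.

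The gene whose pattern over the 28 clusters was most like that of Glp1r was Gm10503, an antisense transcript (chr17:30920338-30963220, minus strand) that overlaps 20.5 kb of Glp1r on the opposite strand. Its log2 level correlated with that of Glp1r with a Pearson r of 0.87 over the 28 clusters (0.86 over the 13 ARC and 0.89 over the 15 PVH clusters), ahead of Gm37885 (0.63), Gm26820 (0.62), Gm3294 (0.62) and Trpm7 (0.62), none of which lies on the same chromosome. The clusters share 1 library, and the correlation is given as a description. Gm10503 stood at 15.4 CPM with the ARC hashtag (301 UMIs) and 11.2 CPM with the PVH hashtag (187 UMIs), and its highest levels were in the same leading clusters, with 52.5 CPM (41.7 to 65.2) in ARC cluster 3, 63.5 CPM (46.7 to 84.4) in PVH cluster 10 and 44.7 CPM (28.9 to 65.9) in PVH cluster 14. In the AGRP-like cluster it stood at 4.78 CPM (2.83 to 7.55).

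The pair also met in single nuclei. Of the 122 ARC nuclei with a Glp1r UMI, 35 held a Gm10503 UMI (28.7%, 20.9 to 37.6), against 5.62% (4.90 to 6.42) of the other ARC nuclei. Of the 68 PVH nuclei with Glp1r, 18 held Gm10503 (26.5%, 16.5 to 38.6), against 4.22% (3.53 to 5.01) of the others. Within ARC cluster 3 the shares were 43.8% (26.4 to 62.3) and 14.8% (10.8 to 19.6). Within PVH cluster 10 they were 61.5% (31.6 to 86.1) and 22.6% (15.3 to 31.3). The excess was thus also seen inside these clusters, narrowly so in PVH cluster 10. In ARC clusters 4, 9, 11 and 12 and in PVH cluster 6 the share was higher in Glp1r nuclei, but the intervals overlapped. In PVH cluster 14 it was not higher, with 2 of 12 nuclei (16.7%, 2.09 to 48.4) against 24.4% (15.3 to 35.4). After thinning to 2000 UMIs the shares were 8.70% (2.42 to 20.8) of 46 ARC nuclei against 2.71% (2.21 to 3.29), which overlapped, and 15.4% (4.36 to 34.9) of 26 PVH nuclei against 1.91% (1.45 to 2.46). The sources used here do not state whether the counting used the strand, and without it reads from the shared stretch cannot be told apart.

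**Figure D3:**
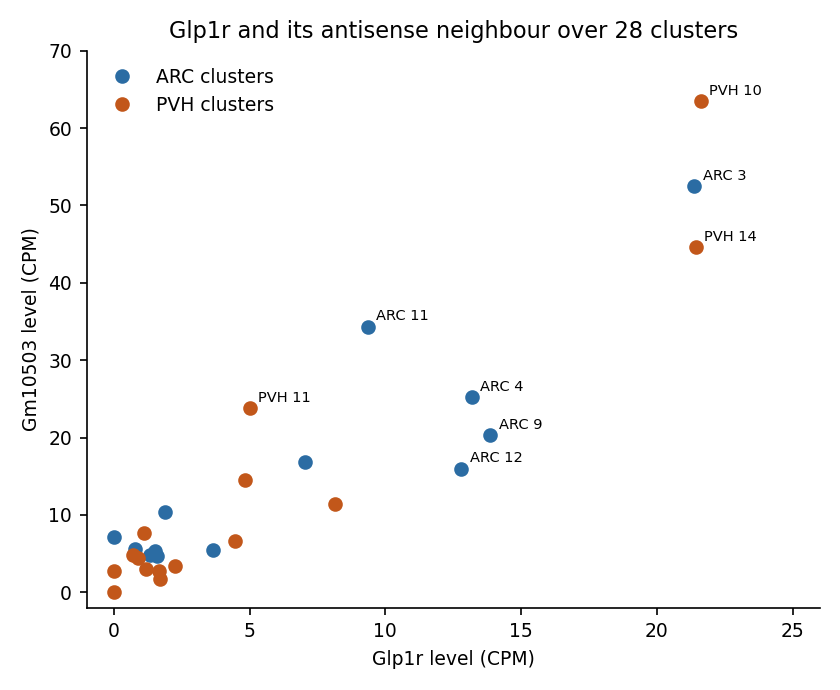
Level of Glp1r (x axis, CPM) against that of Gm10503 (y axis, CPM) in the 13 ARC and 15 PVH clusters, each point being 1 cluster. PVH cluster 10, ARC cluster 3 and PVH cluster 14 are highest for both genes.

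Nuclei with a Glp1r UMI were then read for transmitter, peptide and receptor genes. In ARC nuclei, Slc32a1, the vesicular transporter for GABA, was found in 20.5% of Glp1r nuclei (13.7 to 28.7) and 16.9% of the others (15.7 to 18.2), and Slc17a6, the vesicular glutamate transporter, in 13.9% (8.33 to 21.4) and 16.7% (15.5 to 17.9). Clusters with more Slc32a1 than Slc17a6 and clusters with the reverse held Glp1r at 6.74 CPM (5.33 to 8.41) and 6.19 CPM (4.58 to 8.18) with the ARC hashtag, intervals that overlapped almost entirely. With the PVH hashtag the corresponding levels were 2.43 CPM (1.25 to 4.24) and 5.09 CPM (3.88 to 6.55), which was 2.10-fold higher in the clusters with more Slc17a6 (1.12 to 4.28). Clusters were placed whole, and some had near levels of both transporters. Slc17a6 and Slc32a1 stood at 44.6 and 38.7 CPM in the mixed ARC cluster 2, and at 57.1 and 45.8 CPM in PVH cluster 3. Both, and the mixed PVH cluster 1, were counted with the clusters higher in Slc17a6.

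Lepr was found in 17.2% of ARC nuclei with Glp1r (10.98 to 25.1) and in 16.3% of the others (15.1 to 17.6). In the POMC-like cluster, 10 of 22 nuclei with Glp1r held Lepr (45.5%, 24.4 to 67.8) against 36.5% (30.7 to 42.6) of the rest, and the intervals overlapped. Calcr was found in 10.7% of ARC nuclei with Glp1r (5.80 to 17.5) and in 14.3% of the others (13.1 to 15.4). In PVH nuclei, Sim1 was found in 48.5% of nuclei with Glp1r (36.2 to 61.0) and 28.3% of the others (26.7 to 29.99). This order did not hold in nuclei thinned to 1000 UMIs, where 15 nuclei with Glp1r remained.

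Glp1r and Cckar shared nuclei in the PVH. Of the 68 PVH nuclei with a Glp1r UMI, 9 held a Cckar UMI (13.2%, 6.23 to 23.6), against 73 of 3006 others (2.43%, 1.91 to 3.04), and in ARC nuclei the counts were 2 of 122 (1.64%, 0.199 to 5.80) and 54 of 3645 (1.48%, 1.11 to 1.93). Of the 9 PVH nuclei, 3 were in cluster 10 and 2 each in clusters 6 and 14. Inside cluster 10 the shares were 23.1% (5.04 to 53.8) and 6.96% (3.05 to 13.2), inside cluster 6 they were 22.2% (2.81 to 60.01) and 11.2% (7.09 to 16.7), and inside cluster 14 they were 16.7% (2.09 to 48.4) and 1.28% (0.032 to 6.94), all with overlapping intervals. Nuclei with Glp1r were deeper, with a median of 5683 UMIs against 5025, and after thinning to 2000 UMIs the shares were 11.5% (2.45 to 30.2) of 26 nuclei and 0.889% (0.587 to 1.29).

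Calcr, the receptor that forms the core of the amylin receptor, was highest in the ARC in the AGRP-like cluster and low in the POMC-like cluster, the reverse of their order for Glp1r. The AGRP-like cluster held 406 of the 786 ARC UMIs (51.7%), in 273 of 697 nuclei (39.2%), or 108 CPM (97.5 to 119), 4.46-fold the level of the other ARC nuclei (3.87 to 5.14). The POMC-like cluster held 10 UMIs, or 6.00 CPM (2.88 to 11.03), and the lowest level was in cluster 11, at 3.12 CPM. High levels were also found in the dopaminergic-like cluster (80.0 CPM, 62.9 to 100.3), in cluster 3 (77.7 CPM, 64.4 to 92.9) and in cluster 9 (49.0 CPM, 36.7 to 64.1). The interval of the dopaminergic-like cluster overlapped that of the AGRP-like cluster and that of cluster 3 did not. The dopaminergic-like level was 56.6 CPM (45.6 to 69.4) at a resolution of 0.3 and 47.5 CPM (31.8 to 68.2) with a quantile of 0.99.

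Summed over clusters, Calcr was higher where Slc32a1 led with the ARC hashtag and where Slc17a6 led with the PVH hashtag. In ARC nuclei it stood at 59.6 CPM (55.3 to 64.2) in clusters with more Slc32a1 and 12.1 CPM (9.82 to 14.8) in clusters with more Slc17a6. In PVH nuclei it stood at 15.0 CPM (11.8 to 18.8) and 33.6 CPM (30.4 to 37.1). These sums do not hold cluster by cluster. In the ARC, the AGRP-like cluster held 406 of the 690 Calcr UMIs of the clusters with more Slc32a1. Cluster 11, also among them, had the lowest ARC level (3.12 CPM). In the PVH, clusters 6, 11 and 14 had more Slc17a6 but low Calcr, and cluster 7 had more Slc32a1 but high Calcr. The highest PVH level was in cluster 10, the cluster that also led for Glp1r, at 98.6 CPM (77.3 to 124), followed by Sim1 PVH-like clusters 4 (76.6 CPM, 63.0 to 92.3) and 8 (60.9 CPM, 47.3 to 77.2) and by cluster 7, GABAergic nuclei led by Nr5a2 and Lhx1os (53.7 CPM, 39.7 to 71.0). These 4 clusters held 300 of the 470 UMIs (63.8%). In 5 of 11 alternative clusterings the leading PVH cluster for Calcr shared no nucleus with cluster 10, at 61.3 to 76.6 CPM. Sim1 PVH-like clusters 6, 11 and 14, of which the latter pair had the highest Oxt and Avp levels, stood at 4.07 CPM (1.32 to 9.50), 5.01 CPM (1.37 to 12.8) and 5.36 CPM (1.11 to 15.7).

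Lepr was found in 27.4% of ARC nuclei with a Calcr UMI (23.6 to 31.4) and 14.5% of the others (13.3 to 15.8). Inside the AGRP-like cluster the shares were 46.9% (40.8 to 53.0) and 43.9% (39.1 to 48.7), with overlapping intervals, and in PVH nuclei they were 3.09% (1.49 to 5.603) and 4.69% (3.93 to 5.55). The excess over all ARC nuclei was thus not resolved within the class that holds most Calcr, and after thinning to 2000 UMIs the ARC shares were 10.2% (6.77 to 14.6) and 7.36% (6.51 to 8.28), which overlapped.

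Calcrl, the partner of RAMP1 in the receptor for calcitonin gene-related peptide, was also highest in ARC cluster 3, where 49 UMIs gave 31.7 CPM (23.5 to 41.96), 5.64-fold the level of the other ARC nuclei (3.93 to 8.01). Cluster 11 stood at 18.7 CPM (11.1 to 29.6) and the mixed cluster 2 at 17.2 CPM (12.7 to 22.8), and clusters 5 and 6 had no UMI. Inside cluster 2 the gene was densest in the part of 42 nuclei led by Ebf3 and Sim1, with 17 UMIs and 65.9 CPM (38.4 to 105.6), a level whose interval overlapped that of cluster 3. In 4 of 11 alternative clusterings the leading ARC cluster for Calcrl shared no nucleus with cluster 3, at 60.9 to 84.3 CPM. In PVH nuclei Calcrl stood at 31.3 CPM (21.8 to 43.6) in cluster 8, 28.6 CPM (16.3 to 46.4) in cluster 14 and 25.8 CPM (18.1 to 35.5) in cluster 4, and the Sim1 PVH-like class as a whole held 103 of 153 UMIs (67.3%).

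Ramp1 was led in PVH nuclei by a single cluster. Cluster 4 held 56 UMIs in 50 of 298 nuclei, or 39.0 CPM (29.5 to 50.6), 7.85-fold the level of the other PVH nuclei (5.46 to 11.2), and its interval lay above those of all other 14 PVH clusters, of which cluster 13 came next with 10.2 CPM (3.73 to 22.1). With a quantile of 0.99 the leading PVH level of Ramp1 was 14.5 CPM (6.64 to 27.6). Cluster 4 was past 2-fold for Calcr, Calcrl and Ramp1. In ARC nuclei the highest Ramp1 levels were in cluster 2 (9.14 CPM, 5.97 to 13.4) and cluster 3 (9.07 CPM, 4.96 to 15.2), and 10 of the other 12 clusters, cluster 3 among them, had intervals that overlapped that of cluster 2. The leading ARC level of Ramp1 was 79.7 CPM (32.0 to 164) at a resolution of 1.2 and 81.5 CPM (32.7 to 168) with the members among the variable genes, each in a cluster drawn wholly from cluster 2, and it was 24.8 CPM (5.12 to 72.6) with both hashtags clustered together and 15.0 CPM (4.86 to 34.9) with a quantile of 0.99. The non-neuronal part of cluster 2 held 11 of its 26 UMIs, at 46.4 CPM (23.2 to 83.0), and without that part Ramp1 stood at 4.05 CPM (3.20 to 5.06) over the ARC nuclei. Ramp3 was sparse, with at most 6 UMIs in any cluster and a highest level of 6.77 CPM (1.85 to 17.3) in PVH cluster 13, whose interval overlapped those of the other 14 clusters.

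Receptors and accessory proteins were found together in few nuclei. In PVH nuclei with a Calcrl UMI, Ramp1 was found in 11 of 115 (9.57%, 4.87 to 16.5), against 3.79% (3.13 to 4.54) of the others, and in ARC nuclei in 6 of 108 (5.56%, 2.07 to 11.7) against 2.16% (1.71 to 2.68). Inside PVH cluster 4 the shares were 25.0% (11.5 to 43.4) and 15.8% (11.6 to 20.7), which overlapped. After thinning to 2000 UMIs, 1 of 52 PVH nuclei with Calcrl held Ramp1 (1.92%, 0.0487 to 10.3) against 1.66% (1.24 to 2.18), so the order was not resolved at matched depth. Calcr nuclei held Ramp1 in 6.48% (4.06 to 9.74) of PVH nuclei, against 3.71% (3.03 to 4.48) of the other nuclei, and in 2.25% (1.17 to 3.90) of ARC nuclei, against 2.26% (1.77 to 2.83). In the AGRP-like cluster, which holds most ARC Calcr, 3 of 273 Calcr nuclei held Ramp1, 1 held Ramp2 and 2 held Ramp3. Calcr and Calcrl shared 28 of the 324 PVH nuclei with Calcr (8.64%, 5.82 to 12.2), against 3.16% (2.54 to 3.89) of the others, and 19 of 533 in the ARC (3.56%, 2.16 to 5.51) against 2.75% (2.22 to 3.38). Inside PVH cluster 4 the Calcrl shares were 18.2% (10.3 to 28.6) in Calcr nuclei and 8.14% (4.90 to 12.6) in the rest, which overlapped. Inside PVH cluster 8, Calcrl was found in 8 of 46 Calcr nuclei (interval 7.82 to 31.4%). Among the other nuclei of cluster 8 it was found in 18 of 138 (7.92 to 19.8%), which also overlapped. An excess inside clusters 4 and 8 was thus not resolved. After thinning to 2000 UMIs the shares over all PVH nuclei were 8.05% (4.23 to 13.6) and 1.37% (0.982 to 1.87).

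**Figure D4:**
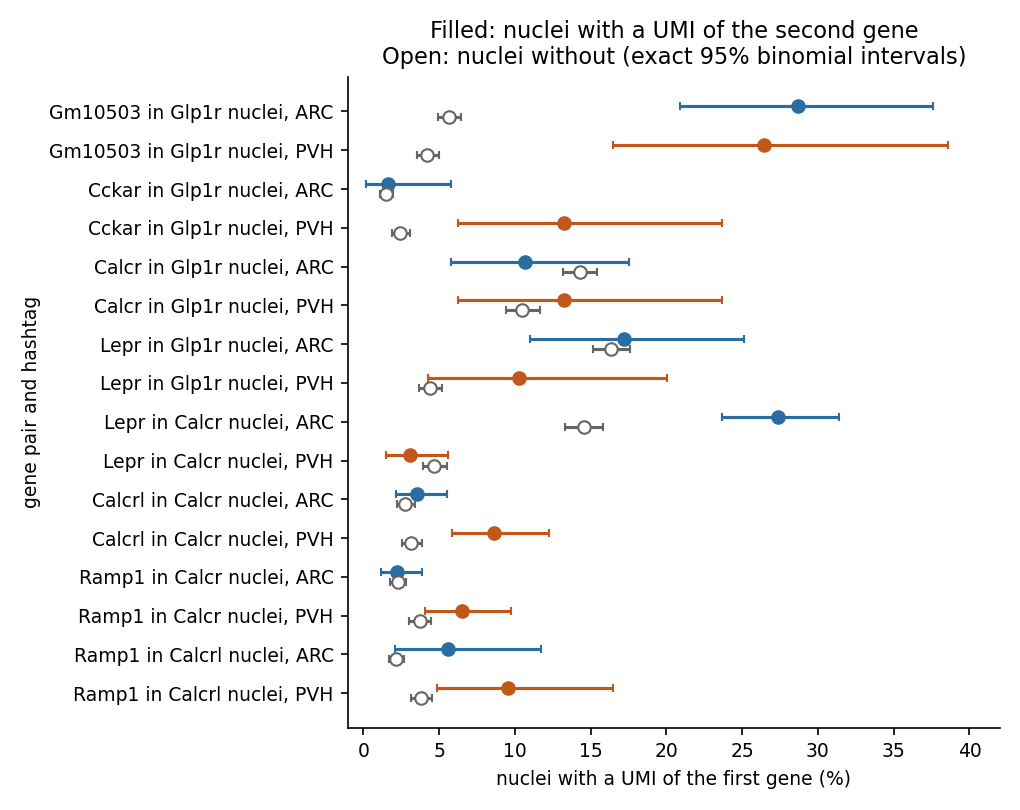
Share of nuclei with a UMI of the first gene (x axis, %) among nuclei with a UMI of the second gene (filled, blue ARC and orange PVH) and among the other nuclei of the same hashtag (open), with exact 95% binomial intervals. Gm10503 in Glp1r nuclei, Cckar in PVH Glp1r nuclei and Lepr in ARC Calcr nuclei stand to the right of the open points without overlap of intervals. In PVH nuclei so do Calcrl in Calcr nuclei and Ramp1 in Calcrl nuclei. Ramp1 in PVH Calcr nuclei and in ARC Calcrl nuclei also stands to the right, with overlapping intervals. In ARC Glp1r nuclei Calcr stands to the left and Lepr slightly to the right, both with overlapping intervals.

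Cckar, the cholecystokinin receptor with high affinity for the sulfated peptide, was led by the POMC-like cluster in the ARC, where 29 UMIs in 26 of 285 nuclei gave 17.4 CPM (11.7 to 25.0), 9.40-fold the level of the other ARC nuclei (5.50 to 16.0) and 46.8% of all ARC UMIs of the gene. Cluster 9 stood at 6.47 CPM (2.60 to 13.3), and clusters 5, 6, 10 and 12 had no UMI. The AGRP-like cluster held 3 UMIs in 697 nuclei (0.796 CPM, 0.164 to 2.33). In PVH nuclei, cluster 6 held 29 UMIs in 23 of 196 nuclei, or 23.6 CPM (15.8 to 33.9), and cluster 10 held 11, or 14.9 CPM (7.42 to 26.6), while clusters 4 and 8, high in Calcr and Calcrl, had no UMI in 298 and 184 nuclei. With a quantile of 0.99 the leading PVH level of Cckar was 4.84 CPM (0.998 to 14.1), and with 50 components the lead passed to a cluster with no nucleus of cluster 6, at 25.4 CPM (11.6 to 48.2). POMC-like nuclei and PVH cluster 6 thus held both Cckar and Glp1r above the level of most clusters. Of the 22 POMC-like nuclei with a Glp1r UMI none held a Cckar UMI (interval 0 to 15.4%). Among the other 263 POMC-like nuclei 26 did (9.89%, 6.56 to 14.1). The intervals overlapped, so whether the genes share POMC-like nuclei is not resolved.

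Cckbr, which binds gastrin and cholecystokinin, had its highest ARC level in the VMH-like cluster, with 8 UMIs and 7.30 CPM (3.15 to 14.4), followed by cluster 7 with 6 UMIs and 4.79 CPM (1.76 to 10.4). It was spread over 14 of 15 PVH clusters with at most 7 UMIs in cluster 8 (6.26 CPM, 2.52 to 12.9), and no order between them is resolved. Gipr was found in 3 of the 83 nuclei of the non-neuronal ARC part, where 4 of its 16 ARC UMIs gave 16.9 CPM (4.598 to 43.2), against 0.623 CPM (0.322 to 1.09) in the other ARC nuclei. No neuronal cluster held more than 4 Gipr UMIs apart from the mixed clusters 2 and 1, with 6 each, and the AGRP-like cluster had none in 697 nuclei, which allows up to 0.796 CPM.

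Over all members, Glp1r, Calcr, Calcrl, Ramp1 and Cckar reached at least 10 UMIs and 2-fold the level of the other nuclei in at least 1 cluster, with either hashtag. This is 5 of 8 members, against 18.2% of 18199 genes with the ARC hashtag and 18.1% of 17960 genes with the PVH hashtag. Gipr, Ramp3 and Cckbr reached 10 UMIs in no cluster and so could not pass.

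**Figure D5:**
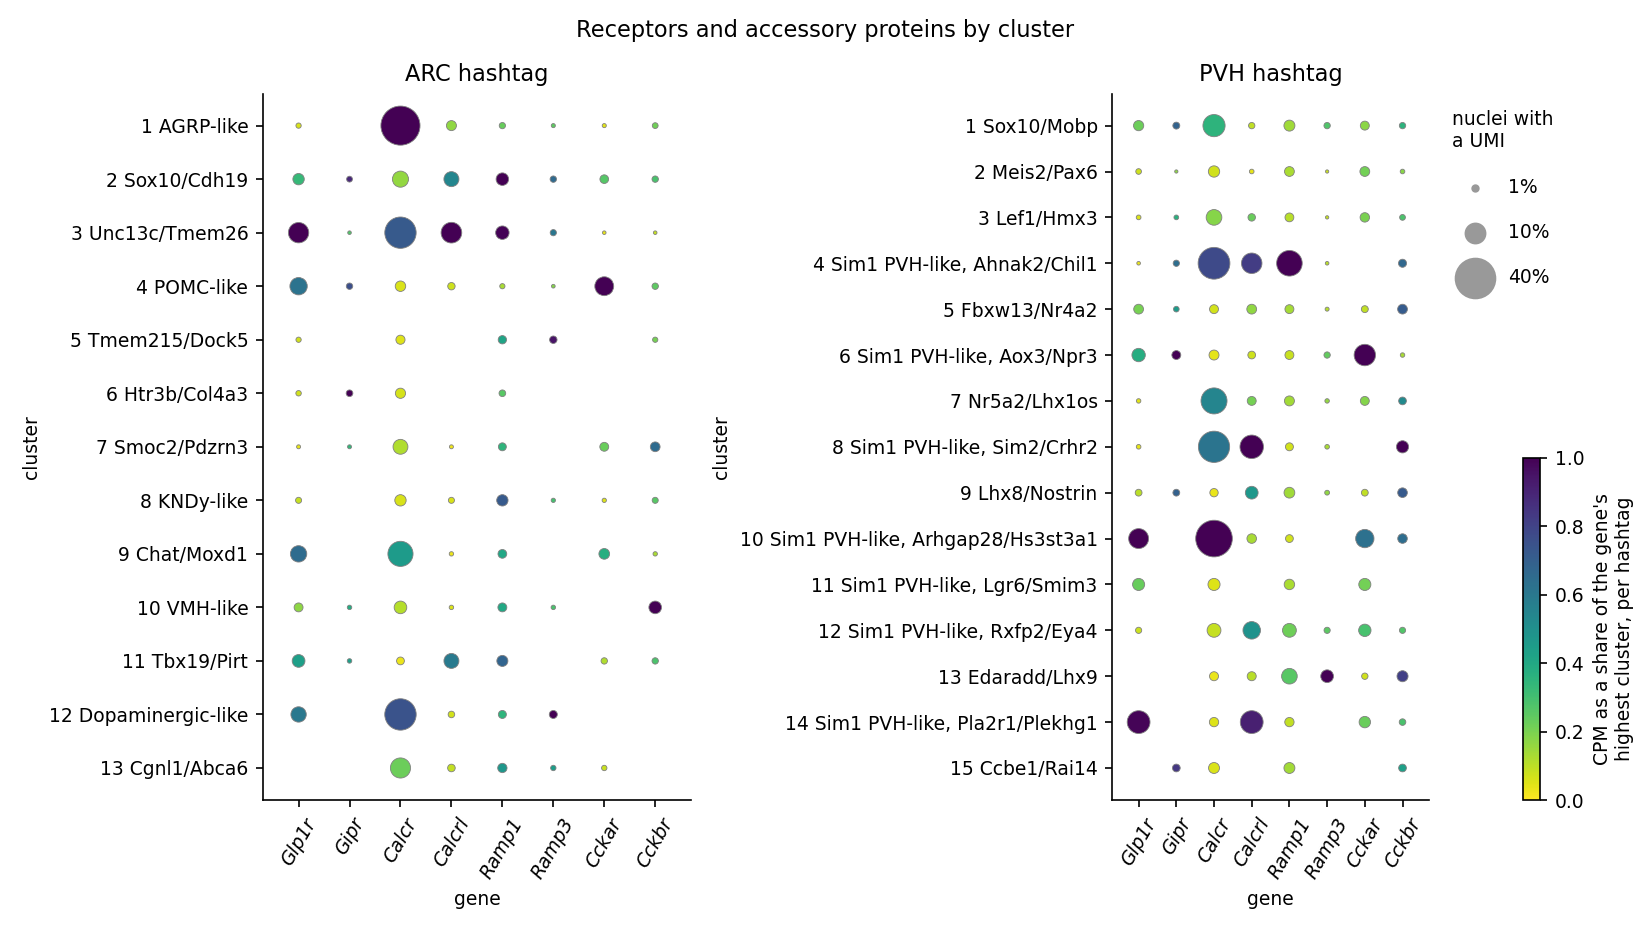
Each of the 8 genes (columns) in each cluster (rows) of the ARC (left) and PVH (right) nuclei, with dot size for the share of nuclei with a UMI and colour for the CPM as a share of the gene's highest cluster within the hashtag. Calcr is darkest and widest in the AGRP-like cluster and PVH cluster 10, Cckar in the POMC-like cluster and PVH cluster 6, and Ramp1 in PVH cluster 4 among the PVH clusters, while Gipr and Ramp3 show small dots throughout.

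Ligands and related genes were read in the same nuclei. Among 17 other genes of the pathways, 4 had no UMI with either hashtag, namely Gip, Iapp (amylin), Gcgr (the glucagon receptor) and Adm2, each allowing up to 0.154 CPM with the ARC hashtag and 0.179 CPM with the PVH hashtag. Gcg, the precursor of GLP1, had 1 ARC and 2 PVH UMIs. Cck, the precursor of cholecystokinin, had 100 and 80 UMIs (5.13 and 4.78 CPM). Calca, the precursor of calcitonin and calcitonin gene-related peptide, had 29 and 20. Glp2r, the receptor for glucagon-like peptide 2, was found in every cluster, from 63.0 to 296 CPM with the ARC hashtag and from 25.0 to 294 CPM with the PVH hashtag. Of the 8 genes with at least 20 UMIs, 2 were at least 2-fold higher with the PVH hashtag, namely Ramp2 (18 and 34 UMIs, log2 ratio 1.14, 0.27 to 2.05) and Dpp4, the enzyme that cleaves GLP1 (43 and 77 UMIs, 1.06, 0.50 to 1.63), and none with the ARC hashtag.

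Each member with at least 50 UMIs was set against all genes over the 28 clusters in the same way as Glp1r. The leading gene was 4931429L15Rik for Calcr (r 0.71), Gm11842 for Calcrl (0.73), Nectin1 for Ramp1 (0.65), Elavl4 for Cckar (0.70) and Pgm2 for Cckbr (0.71). None of these overlaps its member. Each r is the highest of a search over all genes with at least 50 UMIs. 4931429L15Rik and Gm11842 had 55 and 83 UMIs over the 28 clusters, near that minimum. With a pseudocount of 5 CPM or Spearman's rho the leading gene was Kcnk9 or Peg10 for Calcr, and with Spearman's rho it was Ugp2 for Cckar and Kcnab3 for Cckbr. For Ramp1 it differed under each setting, whereas Gm10503 and Gm11842 led for Glp1r and Calcrl throughout. Between members, the highest r was 0.43 for Glp1r with Cckar, followed by 0.41 for Calcrl with Ramp1, and Glp1r and Calcr stood at 0.14.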

How the data were processed

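The deposited values are raw UMI counts for each gene and barcode of 1 pooled library, which the authors made with Cell Ranger (5.0 per the labels, 4.0.0 in the matrix header) on mm10 per the labels, without normalization or filters beyond cell calling. The matrix pools mice, of which the study gives 6 for the ARC, and has 2 hashtag rows. Members, lists and naming thresholds were chosen with earlier results of these data known.

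Kept were nuclei with between 800 and 5000 genes, up to 1% mitochondrial counts and up to 12000 counts, and genes seen in at least 3 nuclei. HTODemux was run with a positive quantile of 0.8, which left 944 doublets and 2385 unassigned nuclei out. Doublets of nuclei with the same hashtag were not removed. Each hashtag was log-normalized to 10000, reduced to 30 components of 2000 variable genes without the members, and clustered by Leiden at a resolution of 0.55 with 20 neighbours (R 4.3.3, Seurat 5.3.0, leidenbase 0.1.32). The study used Seurat 4.

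For levels, UMIs were summed over nuclei and given as CPM with an exact 95% Poisson interval. Shares carry exact binomial intervals, and intervals of ratios were derived from the exact binomial interval of the split of the counts (Python 3.11.15, scipy 1.17.1). A count of 0 allows up to 3 counts. Thinning drew 2000 or 1000 UMIs per nucleus. The fold and interval steps were tested on simulated data. Genes were named by a fixed rule, which gives the 8 members, the context and partner lists and, for members with at least 50 UMIs, the 5 genes with the highest r of log2(CPM + 1) over clusters. Gene positions are from GENCODE M21, which holds all 8 identifiers. The re-clustering of the mixed clusters, the ratio without the non-neuronal part and the pair of Glp1r with Gm10503 were added after the data were seen. Alternatives varied the quantile, filters, resolution, variable genes, components and depth.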

Additional observations from a re-analysis of the deposited data

Results flagged for a closer look

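Signals of the members were also present in the 3329 nuclei that passed the filters without a single hashtag, 944 of them doublets of both hashtags and 2385 unassigned, which no comparison above uses. Their median depth was 4117 UMIs. Each member stood above the limit of 0.208 CPM that a count of 0 allows there. Glp1r stood at 5.34 CPM (95% interval 4.21 to 6.67), Calcr at 33.4 CPM (30.5 to 36.5) and Calcrl at 7.90 CPM (6.52 to 9.49). Ramp1 stood at 8.67 CPM (7.21 to 10.3) and Ramp3 at 1.66 CPM (1.07 to 2.48). Cckar stood at 3.40 CPM (2.51 to 4.49), Cckbr at 2.56 CPM (1.81 to 3.54) and Gipr at 0.763 CPM (0.381 to 1.36). For Glp1r, Calcr, Calcrl, Cckar and Cckbr the level lay between those of the ARC and PVH hashtags, and for Gipr, Ramp1 and Ramp3 it lay outside them.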

How the results depend on the processing

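The Glp1r share and level in the leading ARC cluster kept within their intervals under all 11 alternatives, at 21.7% to 25.98% and 20.3 to 29.95 CPM. In PVH nuclei the leading cluster held 15.3% to 33.3% of Glp1r UMIs and shared no nucleus with cluster 10 in 6 of 11 (a resolution of 0.3, members among the variable genes, 20 components, a quantile of 0.99, no upper limits, and both hashtags together). The quantile of 0.99, with 407 PVH nuclei, gave 4.84 CPM there, and 50 components gave 36.7 CPM. That quantile gave log2 ratios of PVH over ARC of -0.63 for Gipr, -0.24 for Calcr, 1.27 for Calcrl and, reversed, -0.0581 for Cckar. Shares at 2000 UMIs gave -0.52 for Gipr and 0.59 for Calcrl. All other ratios stayed within their intervals.

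Shares of nuclei with 2 genes varied with depth, with 4 to 46 nuclei with Glp1r per hashtag in these alternatives, and no fold was given where no nucleus held both genes. The fold of Gm10503 in Glp1r nuclei over the others was 9.52 (ARC) and 16.2 (PVH) with at least 2 Glp1r UMIs and 3.21 at 2000 UMIs (ARC). That of Cckar (PVH) was 19.2 with at least 2 UMIs, 12.98 at 2000 UMIs and 29.1 at 1000 UMIs. That of Sim1 (PVH) was 2.61 with at least 2 UMIs and 0.747 at 1000 UMIs, which reversed it. In ARC Glp1r nuclei, that of Calcr was 1.41 with at least 2 UMIs and 0.316 at 2000 UMIs, that of Lepr 2.45 and 0.573, and that of Pomc 0.672 at 1000 UMIs. That of Lepr in ARC Calcr nuclei was 1.39 and of Calcrl in PVH Calcr nuclei 5.87 at 2000 UMIs. That of Ramp1 in PVH Calcrl nuclei was 0.961 with at least 2 UMIs, which reversed it, and 1.16 at 2000 UMIs, and in ARC Calcr nuclei 0.401. The causes were not tested.

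For the levels of the other members and classes and the leading likeness, 271 alternative values stayed within the spread of the reported value and 36 moved. Gm10503 led for Glp1r under each of the 3 likeness settings, whereas the top 5 of Ramp1 shared 0, 1 and 0 genes. No paired analysis was possible because the hashtags carry no replicates.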
